A study of Mus musculus with 6 samples.

Results

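The peaks described here are those places where hnRNP UL1 was found on chromatin at an exon, in a 3' UTR or just past the 3' end of a gene. They were chosen by the authors' annotation of each peak, which had to begin with Exon or Downstream or to read 3' UTR, in a row that names a gene. Of 18624 complete rows in 3 peak tables, 892 met this rule: 255 at exons, 330 in 3' UTRs and 307 within 3 kb past a gene end. The cells were RAW 264.7, a mouse macrophage cell line, left untreated (0 h) or given lipopolysaccharide (LPS, a bacterial cell-wall component) at 100 ng/ml for 4 h or 10 h. Chromatin was cut enzymatically and precipitated with 1 antibody against hnRNP UL1 at every time, and each time is 1 ChIP library. The 3 input libraries were not analysed here.

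hnRNP UL1 is a nuclear RNA-binding protein of the hnRNP U family, known for work on RNA processing, mRNA export and DNA repair. The 3' end of a gene is where the nascent transcript is cut and polyadenylated, while RNA polymerase runs on past the cleavage site before it is released. The last exon and the 3' UTR also hold most binding sites of the proteins that decide how long an mRNA lives, and many mRNAs of the macrophage response to LPS are short-lived for that reason.

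Each table lists a peak as a point 2 bp wide, without height, extent or depth, so a peak is only present or not present and its signal cannot be weighed. The 0 h table held 279 of these peaks (72 at exons, 105 in 3' UTRs, 102 past an end). The 4 h table held 525 (164, 190 and 171), and the 10 h table held 88 (19, 35 and 34). The tables run in the order of the Ensembl ID of the named gene and stop at different IDs, so these totals do not compare the times. Times were compared only for named genes with IDs below 22416, where all tables have rows, or below 27620, where the 0 h and 4 h tables do. With 1 library per time no test between times was possible. Intervals are exact 95% Clopper-Pearson intervals for shares and exact conditional intervals for ratios. They cover counting error only. Peaks cluster, so a difference between cultures would need wider ones.

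Sequence could be read only where a point falls in the 300-base window around a RefSeq gene start, since no genome sequence was used. The first line below is an exon peak at 4 h named for Nav1, the gene of a neuron navigator protein. It lies in exon 5 of 6 of a different gene ID and 81 bp before the RefSeq start of Gm4793. The other lines are peaks at the starts of Actr2 (0 h, 84 bp upstream) and Syk (4 h, 178 bp upstream of one of its RefSeq starts and inside its RefSeq gene span), shown because these genes also carry exon and 3' UTR peaks described further on. All are from the plus strand of GRCm38.p6, with the 2 bases of the deposited point in capitals.
Nav1-named exon peak, 4 h, chr1:135597681-135597710: ccagatggctgtagTGtttacataagacgg
Actr2 start peak, 0 h, chr11:20113021-20113050: tgagagctgtccggCGcggacccgggcgcg
Syk start peak, 4 h, chr13:52583245-52583274: caggtaggagccacTCcgcctcgccgcacc

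The gene that a row names is the one with the nearest start, and it was often not the gene in which the peak lies. Each point was therefore also given the gene that holds it, called its host gene here: the gene of the exon, the gene spanning the 3' UTR point, or the gene that ends up to 3 kb before it. A host gene was found for 814 of 892 peaks. It was the named gene for 634 of all 892 peaks (71.1%, 95% interval 68.0 to 74.0) and had another name for 180. No host gene was assigned for 78 peaks, of which 31 were at exons, 9 in 3' UTRs and 38 past an end. The clearest case is Tnfrsf1b, which encodes TNF receptor 2: its 9 peaks (1 at 0 h, 5 at 4 h, 3 at 10 h) are all listed under Vps13d. The 3 peaks in Ifih1, the gene of the viral RNA sensor MDA5, are listed under Fap, and the 4 peaks in Fbxo32, a ubiquitin ligase subunit gene, under Wdyhv1. The peaks past the end of Elavl1, which encodes the mRNA-stabilising protein HuR, are listed under Timm44. Among 646 gene names listed for these peaks 3 are calendar dates, as a spreadsheet makes of septin and March names. Under 10-Sep and 5-Mar the host genes were Septin10 and Marchf5, which are counted among the 180. Only 19 of 892 points lay in the spans of more than 1 protein-coding gene.

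Over the gene IDs that all times share, these classes held 81 of 1310 named peaks at 0 h, 312 of 5289 at 4 h and 88 of 1145 at 10 h. The 0 h share was 6.18% (4.94 to 7.63), the 4 h share 5.90% (5.28 to 6.57) and the 10 h share 7.69% (6.21 to 9.38). Their number was thus 3.85 times as large at 4 h as at 0 h, beside 4.04 times for all named peaks, and the ratio of shares at 4 h over 0 h was 0.95 (0.745 to 1.23). Over the longer range of IDs the share was 5.82% at 4 h (525 of 9016 peaks) and 5.78% at 0 h (128 of 2216). The share at 10 h was 1.30 times that at 4 h (1.02 to 1.66) and 1.24 times that at 0 h (0.909 to 1.70). The interval of the 10 h over 4 h ratio reached below 1 when peaks past an end were left out (1.16, 0.844 to 1.57).

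By class, exons held 1.45% (0 h), 1.76% (4 h) and 1.66% (10 h) of the named peaks. The shares in 3' UTRs were 2.21%, 2.31% and 3.06% in the same order. Past a gene end lay 33 at 0 h (2.52%), 97 at 4 h (1.83%) and 34 at 10 h (2.97%). At 10 h there were about as many as at 0 h, and their share was 1.62 times that at 4 h (1.06 to 2.42). For 4 h over 0 h that ratio was 0.73 (0.486 to 1.12), and the exon ratio was 1.21 (0.735 to 2.1), both with intervals that include 1.

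**Figure D1:**
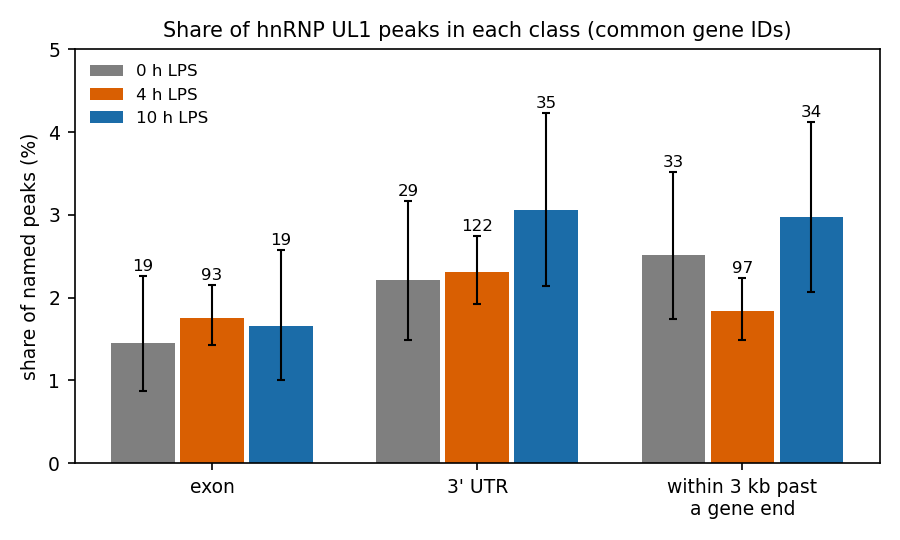
Share of all named peaks (%, vertical axis) that lay at exons, in 3' UTRs or within 3 kb past a gene end at 0 h, 4 h and 10 h of LPS, over the common gene IDs, with exact 95% intervals and the number of peaks above each bar. The share past a gene end was 2.52% at 0 h, 1.83% at 4 h and 2.97% at 10 h, while the exon shares stayed between 1.45% and 1.76%.

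Of 2097 genes named in the common range, 68 (3.24%) were named by such a peak at 0 h, 234 (11.2%) at 4 h and 69 (3.29%) at 10 h. In the longer range peaks of these classes named 399 of 3510 genes at 4 h (11.4%) and 108 at 0 h (3.08%). Peaks of any class named 3142 genes there at 4 h and 1322 at 0 h. By host gene there were 67 genes at 0 h, 220 at 4 h and 64 at 10 h. Most had a single such peak: 62 of 67 at 0 h, 176 of 220 at 4 h and 51 of 64 at 10 h. Genes with 3 or more numbered 3, 13 and 4 in the same order.

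Within their genes the classes lay as their names say, with an exception for exons. Peaks in 3' UTRs had their median 1361 bp before the RefSeq gene end, at 95.9% of the gene's length, and 107 of 306 with a known end fell in the last 1 kb. Peaks past an end had their median 1617 bp beyond it. Exon peaks had their median 15206 bp before the end, at 64.8% of the gene's length. The authors' class names a transcript and not a gene, so that some 3' UTRs and last exons belong to short transcripts: 46 of 306 such 3' UTR peaks and 60 of 84 last-exon peaks lay more than 5 kb before the gene end. No peak of these classes lay closer than 3023 bp to the start of its named gene, so points within 3 kb of that start are not in these classes.

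**Figure D2:**
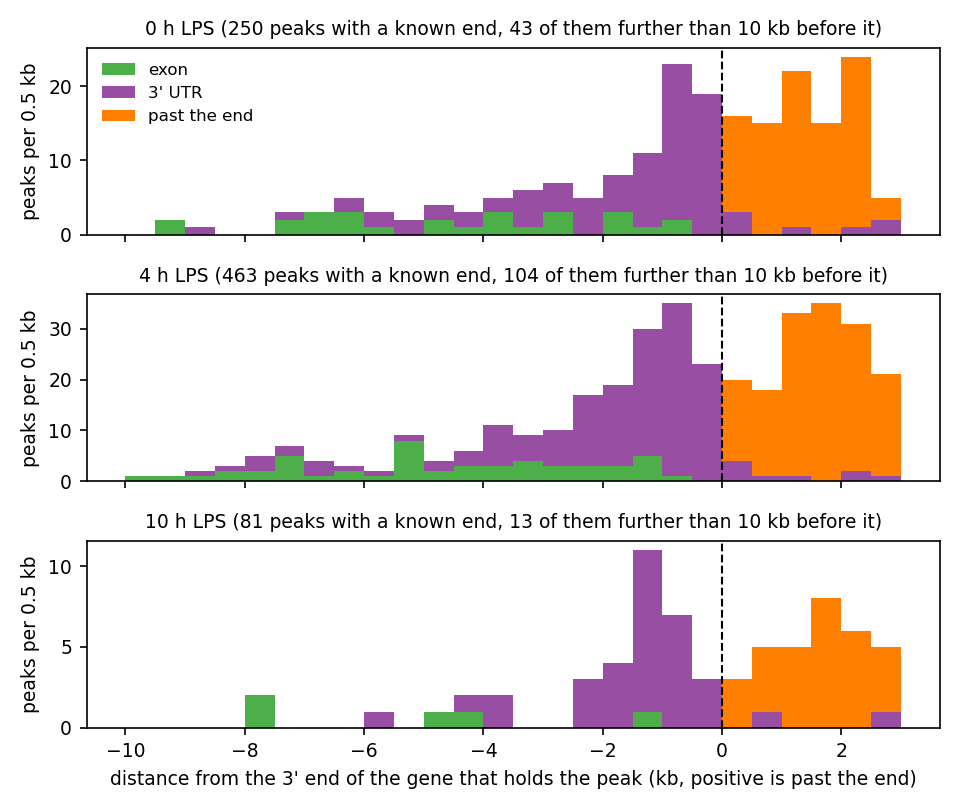
Number of peaks per 0.5 kb (vertical axis) against the distance from the 3' end of the host gene (kb, positive past the end) at 0 h, 4 h and 10 h, over all rows of each table, by class. The 3' UTR peaks pile up in the last 2 kb before the end and the peaks past it spread over the whole 3 kb, and peaks more than 10 kb before an end are left out of the drawing.

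The peaks past an end were not crowded against it. Over the common range 8, 14 and 11 of those at 0 h lay up to 1 kb, 1 to 2 kb and 2 to 3 kb past the end. The numbers were 24, 44 and 29 at 4 h, and 5, 18 and 11 at 10 h, so the middle bin held the most at each time. Counting all named peaks around the ends of long genes gives their surroundings, for genes of at least 20 kb with no other start within 10 kb of the end. In the whole 0 h table, summed over 6466 such ends, there were 30.3 peaks per kb from 10 to 3 kb before the end and 29.0 per kb in the last 3 kb. The first 3 kb past it held 39.7 per kb, and the stretch from 3 to 10 kb past it 30.3 per kb. For the common range, only the 949 such ends of genes that a peak of that range names were kept. Only peaks named for genes of that range were counted. At 0 h there were 7.86 peaks per kb from 10 to 3 kb before the end and 7.33 in the last 3 kb. The first 3 kb past it held 8.33 per kb, and the stretch further out 7. At 4 h the values were 28.6, 27 and 27.3 per kb up to 3 kb past the end, and 17.7 further out. At 10 h they were 6.86, 7.67, 8.67 and 4.29 per kb. Among these named genes, the first 3 kb past an end thus held about as many peaks per kb as the gene body at 4 h. The choice of genes and peaks favours points inside these genes over points further out. The lower values further out cannot be told apart from that choice.

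Since points within 3 kb of a start are not in these classes, first exons are nearly left out by the annotation, and exon peaks are described from the last exon back. Over the common range the last exon of the transcript named in the annotation held 11 of 19 exon peaks at 0 h (57.9%, 33.5 to 79.7), 36 of 93 at 4 h (38.7%, 28.8 to 49.4) and 14 of 19 at 10 h (73.7%, 48.8 to 90.9). The transcripts had a median of 6 exons at 0 h, 10 at 4 h and 4 at 10 h. Internal exons held 57 of the 93 peaks at 4 h, several of them in long genes. Dync1h1, the heavy chain of the cytoplasmic dynein motor, had peaks at exons 17 and 21 of 77. Abca1, the cholesterol exporter, had them at exons 6 and 36 of 50, with 1 further peak 2216 bp past its end at 10 h. Baz1b, a chromatin remodelling factor gene, had peaks at exons 7 and 8 of 19. Lyst, whose product shapes lysosomes, had 1 exon peak at 0 h (exon 23 of 53) and 1 at 4 h.

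Of 298 host genes in the common range, 11 carried these peaks at all 3 times. Among them were Actr2, Ctsb, Fdft1, Gpr137b, Hnrnpa2b1, Mov10, Tnfrsf1b and Vps53. Host genes at both 4 h and 0 h numbered 22, or 10.0% of the 4 h genes and 32.8% of the 0 h genes. Those at both 10 h and 4 h numbered 29, or 45.3% of the 10 h genes and 13.2% of the 4 h genes. Of 27 host genes with at least 3 such peaks over the times, 12 had none at 0 h and 11 had some at every time. Among the 27, 4 had them at 4 h alone and 2 at 0 h alone. Peaks without a host gene are not in these counts. Cpd, among the 4, was also named by a 10 h peak past an end that had no host gene. The same overlap for genes with a peak of any class was not computed. Most genes were named at 4 h, 1830 beside 789 at 0 h and 678 at 10 h. These overlaps, and the genes without such a peak at 0 h, thus have no background to be read against.

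**Figure D3:**
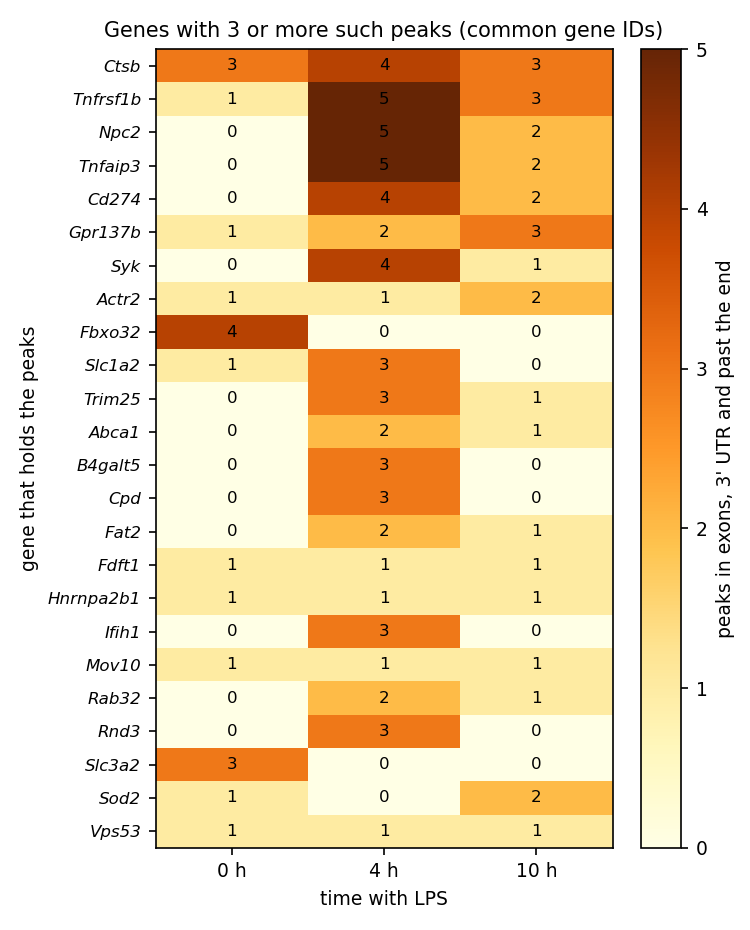
Number of exon, 3' UTR and gene-end peaks at 0 h, 4 h and 10 h (columns, colour and printed number) in 24 of the 27 host genes with 3 or more over the times in the common range. Npc2, Tnfaip3, Cd274 and Syk are at 0 at 0 h and hold 4 or 5 at 4 h, while Fbxo32 and Slc3a2 hold 4 and 3 at 0 h and 0 later.

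Ctsb, which encodes the lysosomal protease cathepsin B, had the most: 3 before LPS, 4 at 4 h and 3 at 10 h. The gene lies on chromosome 14, plus strand, from 63122462 to 63145923 (GRCm38), and 9 of its 10 peaks are in the 3' UTR. At 0 h they lay 659 and 32 bp before the gene end, with the tenth in exon 9 of 10, 4078 bp before it. At 4 h they lay 1644, 930, 672 and 444 bp before the end, and at 10 h 2447, 1483 and 731 bp. The nearest 4 h and 0 h points are 13 bp apart, and the nearest 10 h and 0 h points 72 bp apart. Fdft1, the gene of squalene synthase, runs the opposite way and overlaps the end of Ctsb from 63145150 to 63145923. Of the 10 peaks 5 lie in that overlap, where the 2 genes cannot be told apart.

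Gpr137b, which encodes a membrane protein of lysosomes, had 1 peak 2057 bp past its end at 0 h. At 4 h it had 2, in the 3' UTR 2083 and 1250 bp before the end. At 10 h it had 3, of which 2 lay 1650 and 1081 bp before the end and 1 lay 2810 bp past it. Hnrnpa2b1, itself an hnRNP gene, was host to 1 peak at every time. These lay 563 bp (0 h), 844 bp (4 h) and 599 bp (10 h) past its end on chromosome 6. Another 10 h peak of these classes names Hnrnpa2b1 but had no host gene. Tnfrsf1b had a peak 244 bp past its end at 0 h. At 4 h it had peaks 469 and 1051 bp past the end, 1 in the 3' UTR and 2 in exons 9 and 10 of 10, and at 10 h 3 peaks 18, 703 and 1729 bp past the end.

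A second set of genes had such peaks at 4 h and 10 h and none at 0 h. Peaks of other classes were counted up to 3 kb around each gene span. At 0 h Npc2 had 2 of them, both in introns, and Tnfaip3 and Nfkbia had 0. Tnfaip3 encodes A20, a ubiquitin-editing inhibitor of NF-kB that LPS induces. It had 5 peaks at 4 h, 1 in the 3' UTR and 4 strung out 295, 1161, 2265 and 2652 bp past its end on chromosome 10. At 10 h it had 2, of which 1 lay 1002 bp past the end and 1 in exon 6 of 9. Npc2, which encodes a cholesterol-binding protein of lysosomes, had 5 peaks at 4 h, 117 bp before its end and 493, 1441, 2197 and 2618 bp past it. Its 2 peaks at 10 h lay 1476 and 2650 bp past the end, 35 and 32 bp from points of 4 h. Nfkbia, which encodes IkB-alpha, the protein holding NF-kB in the cytoplasm, had 1 peak 1441 bp past its end at 4 h and 1 at 1473 bp at 10 h, 32 bp apart.

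Cd274 encodes PD-L1, a ligand that restrains T cells. It had 4 peaks at 4 h, in exons 3 and 4 of 7 and in the 3' UTR 2179 and 569 bp before its end. Its 2 peaks at 10 h lay in the 3' UTR 2155 and 1259 bp before the end, the first 24 bp from a 4 h point. At 0 h 1 other peak lay in or within 3 kb of its span. Syk, a tyrosine kinase gene of immune receptor signalling, had 4 peaks at 4 h, 2 in exons of short transcripts and 2 in the 3' UTR 1855 and 964 bp before the end. Its only peak of these classes at 10 h lay in exon 6 of 6 of such a transcript, 123 bp from a 4 h point. At 0 h it had 1 peak within 1 kb of a start. Trim25, a ubiquitin ligase gene of the antiviral response, had 3 peaks at 4 h and 1 at 10 h.

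**Figure D4:**
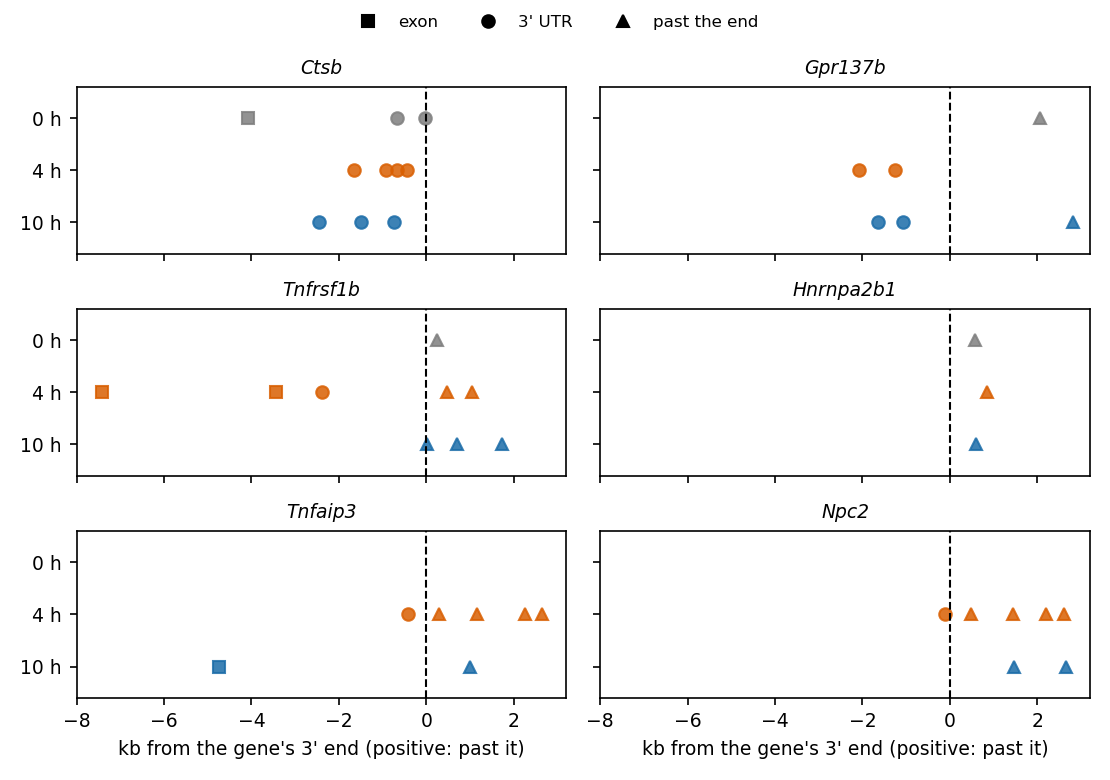
Position of each exon (square), 3' UTR (circle) and gene-end (triangle) peak around the 3' end of 6 host genes, in kb from the end (horizontal axis, positive past it), for 0 h, 4 h and 10 h from top to bottom. Ctsb, Gpr137b, Tnfrsf1b and Hnrnpa2b1 have peaks at every time, whereas Tnfaip3 and Npc2 have 5 each at 4 h, 2 each at 10 h and 0 at 0 h.

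Of the 27 genes, 2 had these peaks before LPS alone. Slc3a2, which encodes the heavy chain of amino acid transporters, had 3 peaks 271, 940 and 1385 bp past its end at 0 h and 0 at 4 h and 10 h. At 4 h 1 other peak lay in or within 3 kb of its span. Fbxo32 had 4 at 0 h, all in the 3' UTR between 5249 and 2129 bp before the end, and 0 later. Only Elavl1 and Sod2 had such peaks at 0 h and 10 h but not at 4 h. Elavl1 had 1 peak at each, 2177 bp (10 h) and 1696 bp (0 h) past its end. Sod2, the mitochondrial superoxide dismutase gene, had 2 in its 3' UTR at 10 h and 1 at 0 h. At 4 h it had 1 peak within 1 kb of a start. In the longer range Zeb2, which encodes a zinc-finger repressor, had 4 peaks at either time. Of these 8 peaks 6 lay in short transcripts between 123090 and 112489 bp before its end. Raph1, an actin-regulator gene, had 1 peak at 4 h and 3 at 0 h, all in its 3' UTR. Among genes with IDs beyond both ranges, 3 peaks each at 0 h lay at Atp6v0d2, a proton pump subunit gene, and at Fnip2, a folliculin partner gene, both of the lysosome list.

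The gene lists put these carriers into functions, by host gene over the common range, where all host genes together carried member peaks at 67 (0 h), 220 (4 h) and 64 (10 h) genes. Early LPS-induced genes, 13 of which had any row, held 1 such peak at 0 h, 11 at 4 h and 3 at 10 h. At 4 h they lay in 7 genes, namely Tnfaip3, Nfkbia, Rel (an NF-kB subunit), Cd40 and Cd83 (both activation receptors), Ccl5 (a chemokine) and Klf6 (a transcription factor). Klf6 was the one also hit at 0 h. Late LPS-induced genes (9) held 0, 5 and 4, at Cd274, at Acod1, the itaconate-producing enzyme gene, and at Aoah, whose product inactivates LPS. Interferon-response genes (7) held 0, 11 and 1. These were 3 each in Ifih1 and Trim25, 2 each in Cmpk2 and Rsad2, which are neighbouring antiviral genes, and 1 in exon 8 of 14 of Mx1, all at 4 h, and 1 in Trim25 at 10 h.

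By named gene, the early, late and interferon-response lists had 7, 3 and 3 peaks of any class at 0 h. They had 75, 90 and 63 at 4 h, and 13, 34 and 6 at 10 h. The share of a list's named peaks at exons, in 3' UTRs or past an end can be set beside that of all named peaks. For all named peaks it was 6.18% at 0 h, 5.90% at 4 h and 7.69% at 10 h. At 4 h the list share was 12% of 75 peaks for early LPS-induced genes and 19.0% of 63 for interferon-response genes. For late LPS-induced genes it was 5.56% of 90. Shares of that size were also found in other lists: 20% of 20 peaks for housekeeping genes, 17.6% of 17 for ribosomal protein genes, 14.3% of 42 for macrophage genes and 12.2% of 82 for lysosome genes. Over the longer range the interferon-response share was 12.2% of 115 peaks at 4 h. In the common range at 0 h, the early list stood at 14.3% and the late and interferon-response lists at 0%. At 10 h the shares were 23.1% (early), 11.8% (late) and 16.7% (interferon-response). At 4 h, of 9 early LPS-induced peaks 5 are at Tnfaip3, and of 12 interferon-response peaks 5 are named for Mx1. Ctsb is in both the macrophage and the lysosome list. It is named by 5 of the 6 macrophage peaks and 5 of the 10 lysosome peaks at 4 h, and Npc2 by the other 5 lysosome peaks. These lists were drawn up with results of the same data known.

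In view of the protein's role, genes of RNA processing were listed too. Splicing and hnRNP genes (20 with a row) held 4 (0 h), 2 (4 h) and 2 (10 h) by host gene. Of the peaks named for the list, these classes held 3 of 26 at 0 h (11.5%), 3 of 68 at 4 h (4.41%) and 2 of 15 at 10 h (13.3%). For all named peaks the shares were 6.18%, 5.90% and 7.69%. Both peaks at 10 h are named for Hnrnpa2b1, whereas by host gene 1 was at Hnrnpa2b1 and 1 at Elavl1. Besides Hnrnpa2b1 and Elavl1 the genes were Hnrnpd, which encodes the mRNA-decay factor AUF1, and Mbnl2, a splicing regulator. Hnrnpd had a 3' UTR peak 1229 bp before its end at 4 h and 1444 bp before it at 0 h, 215 bp apart. Chtop, an mRNA export factor gene, had 1 peak 1400 bp past its end at 4 h and 1 at 1787 bp at 0 h. Genes beyond the common range added Hnrnpll with 2 exon peaks at 4 h, and Hnrnpa3 with 2 and Prpf19 and Rbm5 with 1 each at 0 h. By host gene, 3'-end processing genes (7) held 0, 2 and 0 in order of time. These were 1 each in Papolg, a poly(A) polymerase gene, and Cpeb4, a regulator of cytoplasmic polyadenylation. Of the peaks named for this list, these classes held 0 of 14 at 0 h, 1 of 44 at 4 h (2.27%) and 1 of 23 at 10 h (4.35%). The 10 h peak had no host gene in the list. Genes of mRNA decay (6) and of the DNA damage response (3) held 0 at each time in the common range. Peaks of any class named for them were few, so counts of 0 do not show an absence. In order of time they numbered 2, 14 and 4 (mRNA decay) and 1, 9 and 1 (DNA damage response).

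Lysosome genes (13) held 6 (0 h), 9 (4 h) and 6 (10 h), of which Ctsb and Npc2 held 3, 9 and 5. Of the peaks named for the list, these classes held 11.5% of 61 at 0 h, 12.2% of 82 at 4 h and 20.6% of 34 at 10 h. For all named peaks the shares were 6.18%, 5.90% and 7.69%. The other lysosome genes hit were Atp6v0d1, Lgmn and Slc29a3 with 1 each at 0 h and Psap with 1 at 10 h. Of macrophage marker genes (6), Ctsb carried 3, 4 and 3 over the times, Fcgr1 (the high-affinity IgG receptor) 0, 1 and 1, and Mertk (a receptor for dying cells) 0, 1 and 0. Signalling genes of the TLR4 pathway (9) held 1, 2 and 1, in Irak3 at 0 h, Tbk1 and Tab2 at 4 h and Traf3 at 10 h. Transcription and chromatin genes (11) held 1, 0 and 2 by host gene, and 1, 2 and 2 by named gene. Ribosomal protein genes (9) held 1, 3 and 1, and zinc-finger genes named Zfp (9) 0, 1 and 1. Housekeeping genes (5) held 3, 4 and 2, among them Ywhaz, with 1 at 4 h and 1 at 0 h. Shares of the peaks named for a list follow in order of time. Macrophage genes had 16.7% of 18, 14.3% of 42 and 19.2% of 26. TLR4 genes had 11.1% of 9, 10% of 30 and 0% of 9. Transcription genes had 3.03% of 33, 2.90% of 69 and 6.67% of 30. Ribosomal genes had 16.7% of 6, 17.6% of 17 and 20% of 5. Zfp genes had 0% of 2, 6.67% of 15 and 50% of 2. Housekeeping genes had 37.5% of 8, 20% of 20 and 50% of 4. Of the T and B cell markers 1 gene had any row in the common range, and it held 0; no neuronal or hepatocyte marker had a row there. Binding is not expression, so these counts do not measure other cells in the culture.

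Recurrence between times was looked at next, with a point of another time within 500 bp counted as shared. At 0 h, 8 of 81 of these peaks lay near a 4 h peak of any class (9.88%, 4.36 to 18.5), beside 19.2% of all 0 h peaks and 27.0% of those at starts. At 4 h, 31 of 312 lay near a 10 h peak (9.94%, 6.85 to 13.8), beside 4.95% of all 4 h peaks. At 4 h, 11 of 312 lay near a 0 h peak (3.53%, 1.77 to 6.22), beside 4.86%. At 10 h, 23 of 88 lay near a 4 h peak (26.1%, 17.3 to 36.6), beside 20.3%, and 11 lay near a 0 h peak (12.5%, 6.41 to 21.3), beside 8.03%. At 0 h, 7 of 81 lay near a 10 h peak (8.64%, 3.55 to 17), beside 7.4%. The 4 h peaks near 10 h ones are the single case in which the interval lies wholly above the background, and the 0 h peaks near 4 h ones the single case in which it lies wholly below. Over the longer range 18 of 525 at 4 h lay near a 0 h peak (3.43%, 2.04 to 5.36), beside 4.51%. The 0 h peaks near 4 h ones were then 17 of 128 (13.3%, 7.93 to 20.4), beside 18%, and this interval includes the background.

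**Figure D5:**
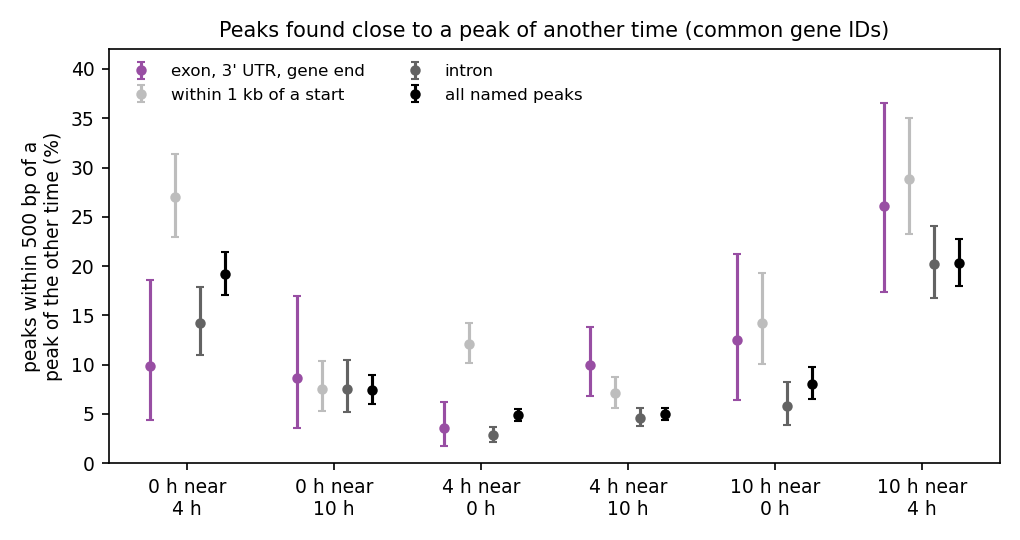
Share of peaks (%, vertical axis) of one time that lay within 500 bp of any peak of another time, for exon, 3' UTR and gene-end peaks, peaks within 1 kb of a start, intron peaks and all named peaks of the common range, with exact 95% intervals. For 4 h peaks near 10 h peaks the value was 9.94% in these classes and 4.95% over all, and for 0 h peaks near 4 h peaks it was 9.88% and 19.2%.

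Of the peaks past an end, 12 of 34 at 10 h lay near a 4 h peak (35.3%, 19.7 to 53.5) and 7 near a 0 h peak (20.6%, 8.70 to 37.9). Both intervals are wide. Pairs in which both points are of these classes numbered 28 between 10 h and 4 h, in 17 genes, with a median distance of 192 bp. Between 10 h and 0 h there were 8 pairs in 7 genes (median 149 bp), and between 4 h and 0 h 10 pairs in 6 genes (median 248 bp). Beyond the genes already described, 10 h and 4 h points paired within 111 bp in the 3' UTR of Rps15a, a ribosomal protein gene, and within 75 bp in that of Fdft1. At Fcgr1 they paired within 110 bp. In the longer range 4 h and 0 h points paired within 14 bp in the 3' UTR of Colgalt2, a collagen sugar transferase gene, and within 106 bp past the end of Gapvd1, an endocytosis gene.

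Closeness to other peaks of the same time was counted as well. At 0 h 34.6% (24.3 to 46.0) had another peak within 5 kb, beside 25.2% of all named peaks. At 4 h it was 55.1% (49.4 to 60.7), beside 49.1%, and at 10 h 42% (31.6 to 53.0), beside 27.8%. Over the longer range it was 52.2% at 4 h (47.8 to 56.5), beside 48.4%, and 34.4% at 0 h (26.2 to 43.3), beside 26.2%. In the common range the interval included the background at 0 h and lay above it at 4 h and 10 h. Over the longer range it included the background at 4 h and lay barely above it at 0 h. The values for peaks at starts were 18.6%, 45.8% and 18.4%, and those for intron peaks 28.4%, 49.5% and 32.2%, in the order of time. At each time the intron value lay within the common-range interval of the exon, 3' UTR and gene-end peaks.

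Some genes named by these peaks were named in the same table by a peak within 1 kb of a start as well: 21 of 68 at 0 h (30.9%, 20.2 to 43.3), 103 of 234 at 4 h (44.0%, 37.6 to 50.6) and 11 of 69 at 10 h (15.9%, 8.24 to 26.7). For intron peaks the shares were 30.9%, 52.6% and 26.1%. These shares have no fair counterpart over all named genes, many of which are in the tables through a start or intron peak alone.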

How the data were processed

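Per the labels' protocols, chromatin from RAW 264.7 cells was precipitated with an hnRNP UL1 antibody and sequenced, with 1 library at each of 3 times. The submitters' processing notes name GRCm38 (mm10) and the tools MACS2 2.1.0, BWA 0.7.12 and CASAVA 1.8. Their settings, the use of the input and the annotation tool are not given in the sources used here. The authors deposited peak coordinates with a text annotation and a nearest gene, per the file headers; heights, q-values and depth are not among the columns. The last row of the 4 h table was incomplete and was left out. Points were classified by the authors' annotation, and host genes came from the exon's gene ID or from RefSeq gene spans (GRCm38.p6; 638 of 646 names matched; strand known for 18644 of 21900 protein-coding genes), a step added after the data were seen. Exact intervals used scipy 1.17.1 in Python 3.11.15. Sharing and interval code was tested on simulated points and counts. Named genes are those with the most such peaks at each time and in each class, those with peaks that recur within 500 bp, and up to 4 members of each of 18 lists; host genes with 3 or more peaks, Lyst and other examples were added after their values were seen. The list of replication histone genes matched no name. The members and lists were chosen with earlier results of these data known. Some genes are not reported here.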

Additional observations from a re-analysis of the deposited data

Results flagged for a closer look

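Rows without a gene name were not counted in the report, and the 0 h table held 117 of them at exons (36), in 3' UTRs (24) or past a gene end (57). The 4 h and 10 h tables held 1 each, both at exons. They draw attention as signal in rows that the report leaves out. None of the 117 is in the ID range that all tables share: with such rows counted there, the 0 h number stayed 81, the 4 h number was 313 and the 10 h number 89.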

How the results depend on the processing

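Counts depended on which classes and IDs were taken. Without peaks past an end, 54 peaks in 45 genes were counted at 10 h and 48 peaks in 41 genes at 0 h, and the shares were 3.66% (0 h), 4.07% (4 h) and 4.72% (10 h). The ratio of shares at 10 h over 4 h then had an interval that reached below 1 (1.16), as it did without exon 1 and peaks within 3 kb of a start (1.27, 0.991 to 1.62). The longer ID range gave 525 peaks in 399 genes at 4 h and 128 peaks in 108 genes at 0 h. At 200 bp, sharing was 2.47% for 0 h near 4 h, 0.641% for 4 h near 0 h, 5.45% for 4 h near 10 h and 17% for 10 h near 4 h, and at 1000 bp it was 6.73% for 4 h near 0 h. Genes with another peak were 61.8%, 80.3% and 50.7% in order of time, against 30.9%, 52.6% and 26.1% for intron peaks alone and 30.9%, 44.0% and 15.9% for start peaks alone. Of the other values tried, 75 for these main results and 132 for single gene lists stayed within the limits set, and 12 values in 7 of the lists moved. The ratio of shares at 4 h over 0 h lay on either side of 1, at 0.95 as reported, 1.11 without peaks past an end and 1.01 over the longer range, each with an interval that includes 1; no ratio whose interval excludes 1 changed direction. The cause of these shifts, beyond fewer or more peaks counted, was not tested. Assigning exons and last exons from a reference annotation was not run, since the one used here holds no exons. No paired analysis was possible because each time has 1 library and no test was made. Depth is unknown, so a gene without a peak at one time may still be bound there below the calling threshold.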
